A study of Mus musculus with 24 samples.

Results

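The genes of glucose uptake, glycolysis, pyruvate entry into mitochondria and lactate export were followed in mouse B cells that lacked the transcription factors PU.1 (gene Spi1), SpiB (gene Spib) or both. The set was a fixed list of 34 genes, found by symbol among the 27179 genes of the count tables: 3 glucose transporters, the enzymes of glycolysis with their isoenzymes, 3 regulators of phosphofructokinase, genes of pyruvate dehydrogenase and its kinases, lactate dehydrogenases, 2 lactate transporters and Hif1a. A gene was kept in a stage when at least 2 libraries of that stage held 0.5 CPM or more, CPM being counts scaled by library size. By this rule 32 genes were kept in each stage and 33 in at least 1 stage. Hk3, the hexokinase of myeloid cells, was kept in none, with 0 to 10 counts per library. Eno2 was not kept in naive cells, and Ldhb was not kept in either culture.

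Cells take up glucose through transporters of the SLC2 family, and hexokinase traps it as glucose 6-phosphate. Phosphofructokinase commits the sugar to glycolysis and is switched on by fructose 2,6-bisphosphate, which the PFKFB enzymes make and degrade. Pyruvate is then either reduced by lactate dehydrogenase and exported as lactate through monocarboxylate transporters, or oxidised by pyruvate dehydrogenase, which the PDK kinases inhibit. Resting B cells run this pathway at a low rate and raise it when they grow and divide, and hypoxia-inducible factor 1, with its alpha subunit encoded by Hif1a, can activate many of its genes.

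RNA was sequenced from lymph node B cells on a C57BL/6 background, naive or activated in culture with CD40L + IL-4 for 48 h or with LPS + IL-4, with 2 libraries in each of the 12 groups. Control mice (Cd23T/+) carried the Cd23-Cre transgene alone. PU.1 cKO mice (Spi1fl/fl Cd23T/+) lost PU.1 in mature B cells, in which the Cd23 regulatory sequences drive Cre. SpiB KO mice (Spi1fl/fl Cd23+/+ Spib-/-) lacked SpiB in every cell and carried no Cre, and PU.1 SpiB DKO mice (here DKO, Spi1fl/fl Cd23T/+ Spib-/-) combined both losses, so that SpiB KO and control differed in the Cre transgene as well as in Spib. The labels give no age for a library. By the study's methods, cells for sequencing were gated as CD3-, B220+ and CD138-, a gate that would remove T cells, B220-negative macrophages and CD138+ plasma cells, while mouse plasmacytoid dendritic cells (pDC) carry B220 too. In these bulk samples fewer cells of a type and less RNA per cell cannot be told apart. Counts of the CD40L + IL-4 libraries come in a table of their own, while naive and LPS + IL-4 libraries share another. Any difference in how the libraries of these tables were made cannot be told apart from the difference between CD40L + IL-4 and the other stages.

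The naive libraries held 14231188 to 18194629 counts, those of CD40L + IL-4 held 9598674 to 61640683 and those of LPS + IL-4 held 22757630 to 73658850. Rn45s, a ribosomal RNA precursor, took 6.64% of the counts in replicate 1 of CD40L + IL-4 DKO, 3.62% in replicate 1 of naive control and 3.26% in replicate 2 of LPS + IL-4 PU.1 cKO, against 0.186% to 1.86% in the others, and its part in the results was not tested. Spib stood at 1470 and 1350 CPM in naive control libraries against 85.6 and 80.2 in SpiB KO and 98.8 and 100 in DKO, and it was at or under 37 CPM in every SpiB-deficient culture library. Spi1, counted over all its exons although only part of the gene is deleted, fell by 1.54 on the log2 scale in naive PU.1 cKO, by 0.63 in naive DKO and by 1.73 in CD40L + IL-4 DKO. In LPS + IL-4 DKO it stood at 63.9 and 58.8 CPM beside 72 and 60.7 in control, so the whole-gene count did not show the deletion there. By the study's read coverage, the targeted Spi1 exon was markedly retained in naive DKO and fully removed in CD40L + IL-4. For LPS + IL-4 the study gives a similarly high deletion. Loss of PU.1 in naive DKO was therefore partial. The B cell gene Cd79a was high in every naive library, at 2340 to 3160 CPM. A list of 10 follicular B markers was less even. It summed to 12600 and 13300 CPM in naive control libraries and to 12100 and 12400 after loss of PU.1 alone. The sums were 10600 in both SpiB KO libraries, and 9410 and 8940 in those of DKO. Against control, 0 of the 10 had a positive log2 fold change in either SpiB-deficient genotype. Their median was -0.26 for SpiB KO and -0.43 for DKO. Markers of pDC differed between the naive genotypes. All 10 were higher in both SpiB-deficient genotypes, where their summed level was 1860 to 2850 CPM against 250 to 394 in control and PU.1 cKO, and none was at 0. Of 8 T cell markers tested of 10, 4 were higher in SpiB KO and 5 in DKO. The 10 summed to 385 to 579 CPM against 74.1 to 120 in control and PU.1 cKO, although the gate excludes CD3+ cells. Of 6 macrophage and neutrophil markers tested of 14, 1 and 3 were higher, again of cells outside the gate, with sums of 53.5 to 73.5 CPM against 13.6 to 25.7. From higher pDC, macrophage and T cell genes in naive cells without SpiB, the study proposes that SpiB represses genes of other lineages in B cells. That was not tested here. In both cultures plasma cell markers, despite a gate on CD138- cells, were higher in PU.1 cKO (2460 and 2630 CPM with CD40L + IL-4, 1570 and 1700 with LPS + IL-4) and in DKO (3130 and 3240, 2250 and 2130) than in control (1560 and 1740, 835 and 891), while 14 proliferation markers summed to 3380 to 5330 CPM over all culture libraries. The summed T cell markers were higher in the DKO cultures as well (251 and 261 CPM against 94 and 97.4 in CD40L + IL-4, 193 and 176 against 59.1 and 50.1 in LPS + IL-4). PU.1 cKO (115 and 112, 119 and 126 CPM) and SpiB KO (139 and 122, 94.4 and 88.3 CPM) lay between. Of 5 markers tested in CD40L + IL-4, 3 were DE and higher in DKO, and of 4 tested in LPS + IL-4, 3 were higher and 1 lower. The part of any of these cells in the results was not tested.

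In control cells activation raised most of the pathway. As given above, the counts of CD40L + IL-4 and naive libraries come from separate tables. Against naive cells, 18 of 33 genes rose and 5 fell in CD40L + IL-4, and 18 rose and 6 fell in LPS + IL-4. Differentially expressed (DE) here means that edgeR's quasi-likelihood test gave an adjusted p under 0.15 with a fold change over 1.5. The study's own rule also set a minimum log2 RPKM, which was not applied here. With a mean log2 RPKM above 0 asked for as well, 8 calls of single genes were lost, all of Slc16a3, Eno2 or Ldhb. Of all 13684 genes tested, 48.8% were DE in CD40L + IL-4 (25.4% higher and 23.4% lower) and 63.9% in LPS + IL-4 (32.6% higher and 31.3% lower). The median log2 fold change of the 33 genes was 0.64 and 0.65, against 0 and 0.01 over all genes. For comparison between genes, the deposited log2 RPKM values, which are scaled by gene length, put Aldoa (8.49), Ldha (7.49), Gpi1 (7.20) and Pkm (6.98) highest among these genes in naive control cells. For CD40L + IL-4 Ldha (9.20), Aldoa (9.06) and Pkm (8.78) were highest. The LPS + IL-4 values were normalized separately and were led by Ldha (9.72), Pkm (9.21) and Aldoa (9.17).

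By role, the rises were found among enzyme genes and lactate genes alike. Of 9 preparatory-phase genes, which spend ATP to split the sugar, 7 rose in CD40L + IL-4 and none fell, and of 8 payoff-phase genes, which regain ATP, 6 rose and only Bpgm fell. Of 4 lactate genes 3 rose and none fell. In LPS + IL-4, 6 preparatory-phase genes rose and 1 fell, 6 payoff-phase genes rose and none fell, and 2 lactate genes rose and 1 fell. Of 5 pyruvate entry genes 1 rose and 1 fell in CD40L + IL-4, and 3 rose and 1 fell in LPS + IL-4. None of the 3 genes of the phosphofructokinase regulators rose in either culture, while Pfkfb2 and Pfkfb4 fell in both. The glucose transporters were split: Slc2a6 rose, Slc2a3 fell and Slc2a1, which encodes the common transporter GLUT1, was DE in neither culture. In LPS + IL-4 Slc2a1 was lower by 0.53 on the log2 scale, which passed the adjusted p but not the fold limit. Hif1a itself was DE in neither, at 211 and 161 CPM in naive control cells, 166 and 139 with CD40L + IL-4 and 135 and 128 with LPS + IL-4. Its log2 fold changes, -0.29 and -0.5, passed the adjusted p but not the fold limit.

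**Figure D1:**
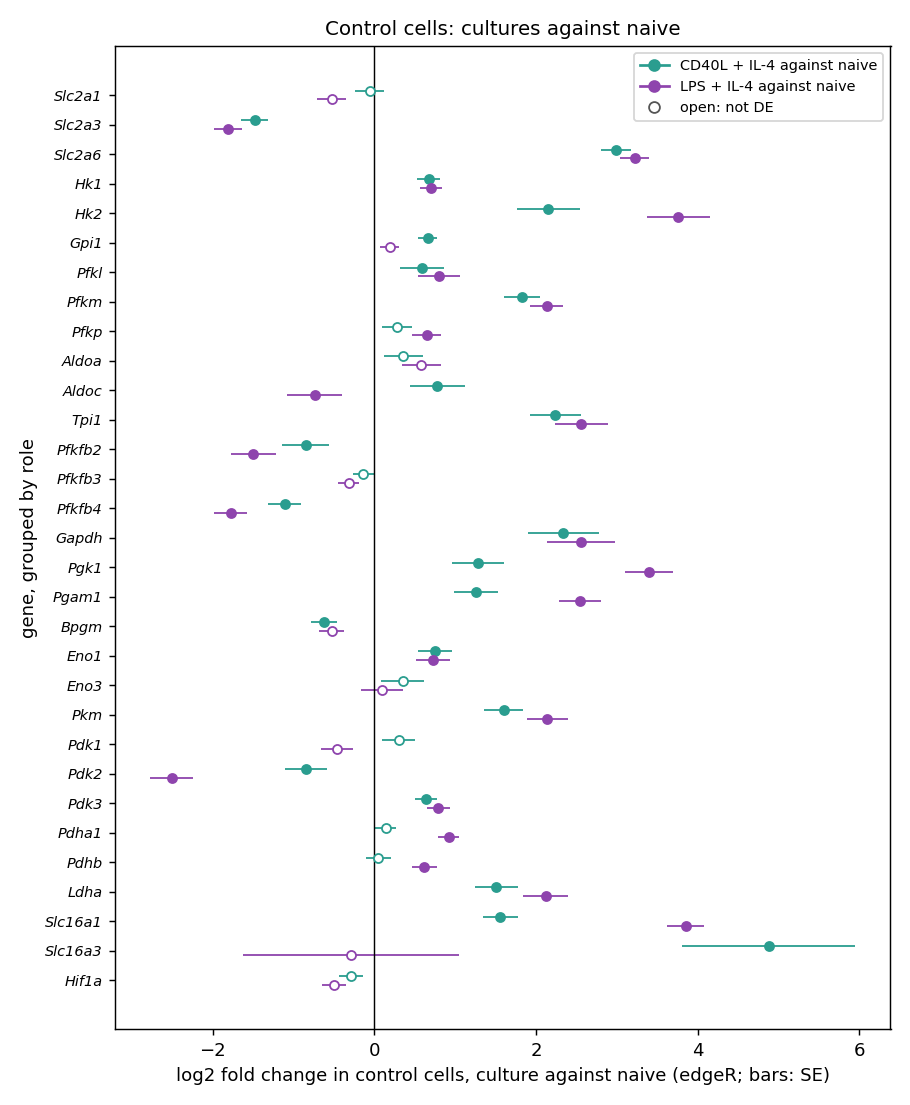
Log2 fold change of 31 genes in control cells, CD40L + IL-4 (green) and LPS + IL-4 (purple) against naive, from edgeR with 2 libraries per group, with SE as bars; open points were not DE. Most enzyme genes lie to the right of 0 in both cultures, while Slc2a3, Pfkfb2, Pfkfb4 and Pdk2 lie to the left, and Slc16a3 is far to the right in CD40L + IL-4 alone. Eno2 and Ldhb, each with no count in a control group, are left out.

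Among genes with counts in every control library, the largest rises in CD40L + IL-4 were those of Slc16a3, Slc2a6 and Gapdh. Slc16a3, which encodes the lactate exporter MCT4, went from 1.14 and 0.297 CPM in the naive libraries to 23.9 and 18.4 (log2 fold change 4.88, SE 1.07, edgeR adjusted p = 0.000776). Slc2a6, which encodes GLUT6, went from 20.4 and 15.2 CPM to 124 and 158 (2.99, SE 0.18, edgeR adjusted p = 7.19e-11). Gapdh, of the oxidation step after aldolase, went from 1.07 and 0.966 CPM to 5.76 and 4.51 (2.34, SE 0.44, edgeR adjusted p = 0.000176). Eno2, the enolase typical of neurons, had no count in either naive control library and 6 counts in each CD40L + IL-4 library. Its mean CPM was 2.49-fold above a floor of 3 counts per naive library, and its lower library was 2.22-fold above the higher floor. The largest falls were those of Slc2a3, Pfkfb4 and Pfkfb2. Slc2a3, which encodes the high-affinity transporter GLUT3, went from 125 and 110 CPM to 46.7 and 37.5 (-1.48, SE 0.17, edgeR adjusted p = 6.58e-07). Pfkfb4 went from 25.6 and 27.7 CPM to 11.4 and 13.2 (-1.11, SE 0.20, edgeR adjusted p = 0.000118). The groups of these genes did not overlap. Pfkfb2 went from 23.9 and 20.1 CPM to 15.2 and 9.12 (-0.85, SE 0.29, edgeR adjusted p = 0.0178), and without replicate 2 of the CD40L + IL-4 control it was not DE (-0.54, edgeR adjusted p = 0.193).

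In LPS + IL-4 the largest rises among such genes were those of Slc16a1, Hk2 and Pgk1. Slc16a1, which encodes the lactate transporter MCT1, went from 21.8 and 16.4 CPM in naive control cells to 236 and 314 (3.85, SE 0.23, edgeR adjusted p = 2.4e-11). Hk2, the inducible hexokinase, went from 8.83 and 10.5 CPM to 114 and 146 (3.76, SE 0.39, edgeR adjusted p = 6.9e-08). Pgk1 went from 4.95 and 3.42 CPM to 38.2 and 49.8 (3.40, SE 0.30, edgeR adjusted p = 6.43e-09). Eno2 reached 24 and 30 counts, its mean CPM 3.39-fold above the floor of 3 counts in the naive libraries and its lower library 2.33-fold above the higher floor. The falls were led by Ldhb, Pdk2 and Slc2a3. Ldhb, the lactate dehydrogenase subunit of oxidative tissues, had 13 and 7 counts in naive control cells and none in LPS + IL-4. Its naive mean CPM was 8.5-fold above a floor of 3 counts per LPS + IL-4 library, and its lower naive library was 4.18-fold above the higher floor. Pdk2, a kinase that inhibits pyruvate dehydrogenase, went from 14.2 and 14.6 CPM to 3.52 and 1.74 (-2.51, SE 0.26, edgeR adjusted p = 7.07e-08), and Slc2a3 to 30.9 and 36.1 CPM (-1.81, SE 0.17, edgeR adjusted p = 1.64e-08).

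The lactate transporters differed between the cultures. Between LPS + IL-4 and CD40L + IL-4 controls, 6 of the 33 genes were higher in LPS + IL-4 and 7 lower, where 41.2% of all genes were DE (20.3% higher and 21% lower). Slc16a1 was 4.88-fold higher in LPS + IL-4 (log2 fold change 2.29, SE 0.21, edgeR adjusted p = 9.35e-08), followed by Pgk1, a phosphoglycerate kinase (12.3 and 7.89 CPM against 38.2 and 49.8, 2.12, SE 0.28, edgeR adjusted p = 5.18e-06) and Hk2 (58.8 and 26.4 CPM against 114 and 146, 1.61, SE 0.35, edgeR adjusted p = 0.000904). Slc16a3 was lower in LPS + IL-4, at 0.58 and 0.587 CPM against 23.9 and 18.4 (-5.17, SE 0.98, edgeR adjusted p = 0.000261). Pdk2 was lower too, by 1.65 on the log2 scale (SE 0.27, edgeR adjusted p = 6.15e-05). Ldhb had 1 and 4 counts in CD40L + IL-4 and none in LPS + IL-4, too few for a fold, and its call was lost without replicate 2 of the CD40L + IL-4 control (edgeR adjusted p = 0.244).

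Only uniquely mapped reads were counted, which bears on the levels of some enzymes. Of the 50-base windows of the longest annotated mRNA, 82.5% of those of Gapdh, 72.2% of Eno1, 68% of Pgk1 and 41.5% of Pgam1 also occur exactly in an annotated transcript of another gene, most often in Gm7336, Eno1b, Pgk1-rs7 and Pgam1-ps2. Gapdh, usually one of the most abundant transcripts, stood at 0.966 to 1.07 CPM in naive control cells and at 4.51 to 6.06 in the cultures. The fold changes of these 4 genes rest on their unshared stretches and are uncertain where reads could be split between copies. Other genes shared smaller parts, among them Pkm (34.4%), Pdhb (30.3%), Ldhb (27%), Gpi1 (25.3%) and Pfkfb2 (25.1%), and the same caution holds for their levels and fold changes. For Slc2a3, Slc2a6, Pfkfb4, Aldoc, Slc16a1 and Slc16a3 0% of the windows were shared.

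Loss of PU.1, SpiB or both changed some of the genes, and not in 1 direction. Of the 33 genes tested in at least 1 stage, 16 (48.5%) were DE in at least 1 of the 9 comparisons with control of the same stage and 17 in none, where 43.4% of all 13583 genes tested were DE in at least 1. Hk3 was not tested. In naive cells 2 of 32 were higher and 2 lower in PU.1 cKO, where 10.7% of all 12500 genes were DE. In SpiB KO 3 were higher and 1 lower (9.62% of all genes), and in DKO 8 were higher and 2 lower, 31.2% of the 32 against 21.2% of all genes (12.6% higher and 8.64% lower). In CD40L + IL-4 3 were higher and 1 lower in PU.1 cKO (13.5% of all 12721 genes), and 1 higher and 6 lower in DKO (18.3%, of which 9.13% higher and 9.2% lower). In SpiB KO none was DE by edgeR, none had an unadjusted p under 0.05, and DESeq2 and voom called none either, where 0.134% of all genes were DE. The 2 libraries of that group differed by over 1.5-fold in 17 of the 32 genes, as given below. The absence of calls there does not show an absence of change. Without replicate 2 of SpiB KO 1 gene was DE and lower. In LPS + IL-4 1 was higher and 1 lower in PU.1 cKO (10.5% of all 12445 genes), 1 higher in SpiB KO (3.19%), and 1 higher and 3 lower in DKO (20.2%, of which 13.7% higher and 6.52% lower). Without a fold limit, 4 of the 32 genes were higher and 12 lower in LPS + IL-4 DKO at an adjusted p under 0.15. The share of all genes by that rule is not given here, so these counts have no background and are no result about the set. The median log2 fold change of the 32 genes was -0.16 against 0.01 over all genes. The control libraries are shared by the 3 comparisons of a stage.

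**Figure D2:**
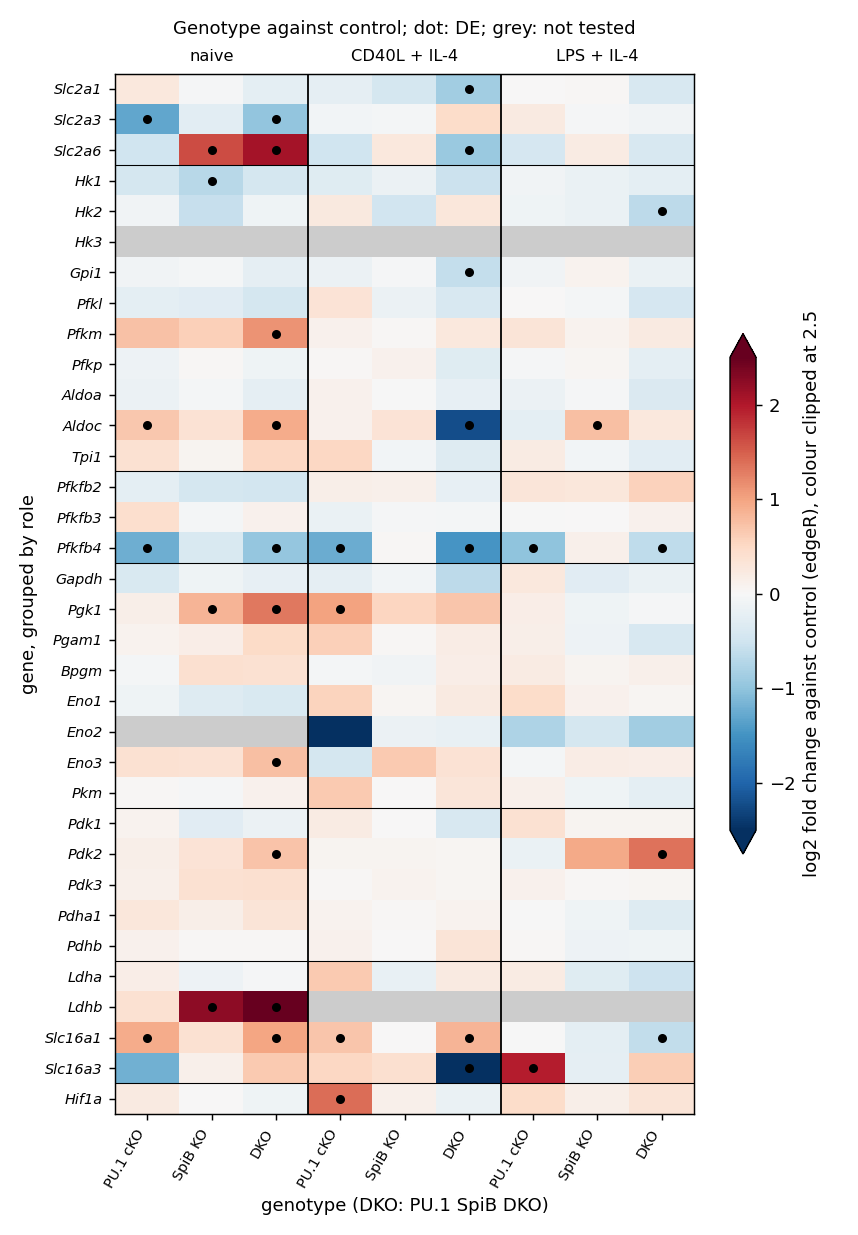
Log2 fold change of the 34 genes (rows, grouped by role) in each genotype against control of the same stage (columns), from edgeR with 2 libraries per group; a dot marks a DE gene, grey a gene not tested, and colour is clipped at 2.5 either way. Pfkfb4 is the only row with a dot in both PU.1 cKO and DKO at all 3 stages, and the CD40L + IL-4 SpiB KO column holds no dot.

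Pfkfb4 was the gene with the most calls, lower in PU.1 cKO and in DKO at every stage. The naive control libraries stood at 23.5 and 26.5 CPM and those of SpiB KO at 19 and 19.3. PU.1 cKO held 10.1 and 11.4 CPM and DKO 11.9 and 13.6. On the log2 scale Pfkfb4 of PU.1 cKO fell by 1.22 (SE 0.16, edgeR adjusted p = 0.002), and that of DKO fell by 0.97 (SE 0.16, edgeR adjusted p = 0.00245). With CD40L + IL-4, control held 11.8 and 13.5 CPM and SpiB KO 14.2 and 11.8, while PU.1 cKO held 6.91 and 4.24 and DKO 3.99 and 5.14. This was a fall of 1.24 (SE 0.28, edgeR adjusted p = 0.0196) and of 1.47 (SE 0.29, edgeR adjusted p = 0.00785). In LPS + IL-4 control stood at 9.25 and 6.84 CPM, PU.1 cKO at 3.9 and 4, SpiB KO at 8.72 and 8.75 and DKO at 5.28 and 4.93, so it fell by 1.01 (SE 0.17, edgeR adjusted p = 0.00491) and by 0.64 (SE 0.17, edgeR adjusted p = 0.0192). At each stage the libraries of both PU.1-deficient genotypes lay below those of control and SpiB KO without overlap. The PU.1 cKO call in CD40L + IL-4 was lost without replicate 2 of PU.1 cKO (-0.86, edgeR adjusted p = 0.24), and the fold in LPS + IL-4 DKO went under the limit without replicate 1 of control (-0.43, edgeR adjusted p = 0.0827). The other phosphofructokinase regulators, Pfkfb2 and Pfkfb3, were DE in no genotype.

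**Figure D3:**
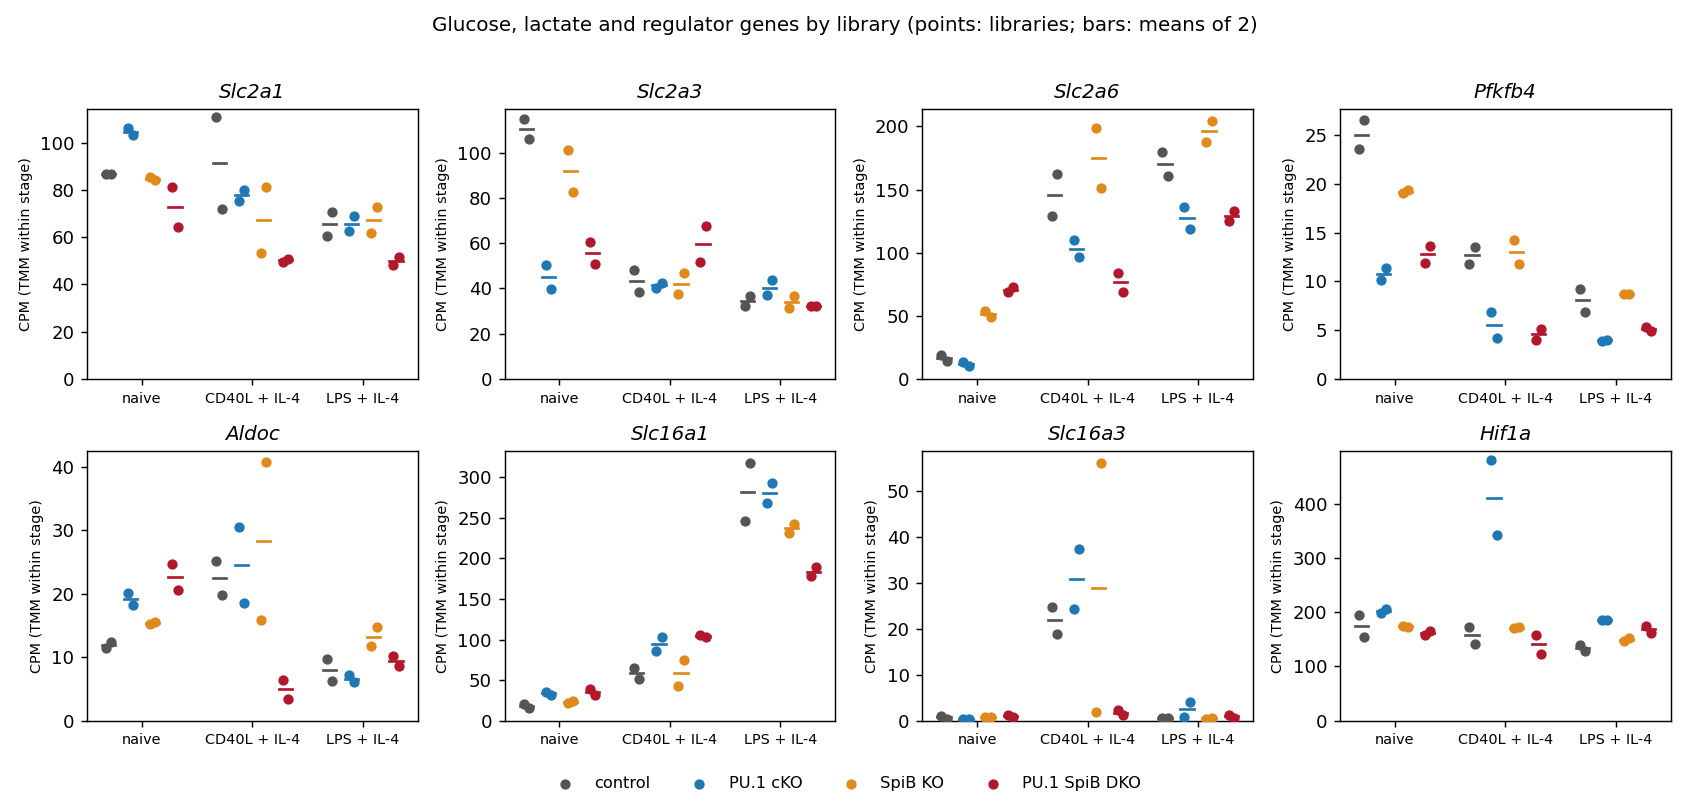
CPM, TMM-normalized within each stage, of 8 genes in every library (points, 2 per group) with the group mean (bar), for control (grey), PU.1 cKO (blue), SpiB KO (orange) and DKO (red). Blue and red points lie below grey and orange in all 3 stages for Pfkfb4, the orange points of Slc16a3 in CD40L + IL-4 lie at 1.87 and 55.9 CPM, and the blue points of Hif1a in CD40L + IL-4 stand above all other libraries.

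The glucose transporters each followed their own pattern. Slc2a3 was high in naive control (115 and 106 CPM) and SpiB KO (101 and 82.5 CPM) and lower in PU.1 cKO (50.4 and 39.7 CPM, -1.29, SE 0.16, edgeR adjusted p = 0.00154) and DKO (60.6 and 50.9 CPM, -0.98, SE 0.16, edgeR adjusted p = 0.00234), with no overlap between these pairs of genotypes. In the cultures, where its level was low in control, it was not DE in any genotype: 38.3 to 48.3 CPM in control and 51.7 and 67.7 in DKO in CD40L + IL-4, and 31.5 to 43.6 CPM over all LPS + IL-4 libraries. The higher level in CD40L + IL-4 DKO passed the adjusted p but not the fold limit. Slc2a6 rose with loss of SpiB in naive cells, from 18.8 and 14.6 CPM in control to 54.1 and 49.1 in SpiB KO (1.63, SE 0.17, edgeR adjusted p = 0.000549) and 68.7 and 72.5 in DKO (2.08, SE 0.17, edgeR adjusted p = 7.1e-05), while PU.1 cKO stood at 13.4 and 10.4. The pDC markers were higher in the same 4 libraries (1860 to 2850 CPM in sum against 250 to 394), as were markers of T cells and macrophages, which the gate would remove, and their part in this rise was not tested. In CD40L + IL-4, where 2 of the 10 pDC markers, Klk1 and Cd300c, had no count in any library and the summed level was 55.4 to 94 CPM, Slc2a6 fell in DKO, from 129 and 162 CPM to 84.1 and 68.9 (-0.93, SE 0.19, edgeR adjusted p = 0.01). With LPS + IL-4, control held 180 and 161 CPM, PU.1 cKO 136 and 119 and DKO 125 and 133, differences of -0.42 and -0.40 on the log2 scale that passed the adjusted p (0.0212 and 0.0116 by edgeR) but not the fold limit. Slc2a1 fell in DKO in CD40L + IL-4, from 111 and 71.7 CPM to 49.6 and 50.9 (-0.86, SE 0.23, edgeR adjusted p = 0.0341), but the control libraries were far apart and without replicate 1 of control its log2 fold change was -0.51 and it was not DE. In PU.1 cKO of that culture none of the 3 transporters was DE, though 0 had a positive log2 fold change (median -0.23).

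Among the preparatory enzymes Aldoc moved most. Aldoc encodes aldolase C, an isoenzyme beside the abundant aldolase A of Aldoa. In naive cells it went from 11.5 and 12.4 CPM in control to 20.1 and 18.2 in PU.1 cKO (0.68, SE 0.16, edgeR adjusted p = 0.0354) and 24.7 and 20.6 in DKO (0.92, SE 0.16, edgeR adjusted p = 0.00338), with SpiB KO at 15.2 and 15.5. In CD40L + IL-4 it fell in DKO, from 25.1 and 19.8 CPM in control to 6.47 and 3.33 (-2.21, SE 0.46, edgeR adjusted p = 0.00984), while PU.1 cKO stood at 30.6 and 18.5 and SpiB KO at 15.9 and 40.7. The DKO libraries lay below all others of that culture. In LPS + IL-4 it was higher in SpiB KO, 11.7 and 14.7 CPM against 9.68 and 6.21 in control (0.75, SE 0.22, edgeR adjusted p = 0.148), at the edge of the threshold, and leaving out either SpiB KO library or replicate 2 of control ended the call (edgeR adjusted p = 0.212, 0.584 and 0.684). Blocking on the replicate number gave an adjusted p of 0.0407. Without replicate 1 of PU.1 cKO, Aldoc was not DE in naive PU.1 cKO (0.60, edgeR adjusted p = 0.221).

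The other preparatory enzymes changed in single comparisons. Hk1, the constitutive hexokinase, fell in naive SpiB KO, from 59.4 and 76.7 CPM to 39.4 and 44.9 (-0.69, SE 0.17, edgeR adjusted p = 0.0439), a call that was lost without replicate 1 of SpiB KO or replicate 2 of control (edgeR adjusted p = 0.297 and 0.216). Pfkm, the muscle-type phosphofructokinase, rose in naive DKO from 3.15 and 1.92 CPM to 4.98 and 6.06 (1.12, SE 0.29, edgeR adjusted p = 0.0249), without overlap. Gpi1, the isomerase after hexokinase, fell in CD40L + IL-4 DKO, from 695 and 739 CPM to 439 and 508 (-0.60, SE 0.16, edgeR adjusted p = 0.0315). Its fold was at the limit of 1.5, and without replicate 1 of DKO (-0.50, edgeR adjusted p = 0.178) or replicate 2 of control (-0.55, edgeR adjusted p = 0.0877) it was not DE. Hk2 fell in LPS + IL-4 DKO, from 119 and 148 CPM to 84.8 and 85.7 (-0.65, SE 0.10, edgeR adjusted p = 0.00153), below every other library of that culture, and without replicate 2 of control its fold was under the limit (-0.48, edgeR adjusted p = 0.00699). Pfkl, Pfkp, Aldoa and Tpi1 were DE in no genotype.

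Of the payoff enzymes, Pgk1 and Eno3 were DE. Pgk1 rose in naive SpiB KO, 8.09 and 5.93 CPM against 4.55 and 3.27 in control (0.84, SE 0.27, edgeR adjusted p = 0.109), and in DKO at 8.61 and 10.8 CPM (1.31, SE 0.26, edgeR adjusted p = 0.00794), with PU.1 cKO at 4.52 and 4.1. The SpiB KO call was lost without replicate 1 of SpiB KO or replicate 2 of control (edgeR adjusted p = 0.542 and 0.43). In CD40L + IL-4 it rose in PU.1 cKO, from 12.7 and 8.07 CPM to 17.6 and 24 (1.01, SE 0.33, edgeR adjusted p = 0.0886), and this call was lost without replicate 2 of either group (edgeR adjusted p = 0.365 and 0.445). Most of the Pgk1 mRNA is shared with other transcripts, as given above, and these values rest on few reads. For Hk1 and Pgk1 in naive SpiB-deficient cells too, the part of the higher pDC, T cell and macrophage markers, the last 2 of cells outside the gate, was not tested. Eno3, the muscle enolase, rose in naive DKO from 3.08 and 4.98 CPM to 7.75 and 5.9 (0.76, SE 0.28, edgeR adjusted p = 0.0903) and was not DE without replicate 1 of either group (edgeR adjusted p = 0.389 and 0.3). Gapdh, Pgam1, Bpgm, Eno1, Eno2 and Pkm were DE in no genotype at any stage where they were tested. Pkm, the pyruvate kinase of growing cells, stood at 296 to 346 CPM over all naive libraries.

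The lactate genes held the largest fold changes. With CD40L + IL-4, Slc16a3 stood at 24.7 and 18.9 CPM in control libraries and at 24.2 and 37.2 in those of PU.1 cKO. SpiB KO held 1.87 and 55.9 CPM and DKO 2.27 and 1.14. It fell in DKO (-3.70, SE 1.12, edgeR adjusted p = 0.0538), which did not overlap with control or PU.1 cKO but lay beside replicate 1 of SpiB KO. The call was lost without replicate 1 of control or replicate 2 of DKO (edgeR adjusted p = 0.193 and 0.224) and under voom (-3.86, adjusted p = 0.193). In LPS + IL-4 it was near the lower limit in control (0.605 and 0.594 CPM) and PU.1 cKO stood at 0.769 and 4.08 (1.96, SE 0.70, edgeR adjusted p = 0.12), a call lost with a mean log2 RPKM above 0 and carried by replicate 2 of PU.1 cKO, without which it was 0.35 (edgeR adjusted p = 0.858). Leaving out either control library also ended that call (edgeR adjusted p = 0.248 and 0.312).

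Slc16a1 was higher in both PU.1-deficient genotypes in naive and CD40L + IL-4 cells and lower in DKO in LPS + IL-4. It went from 20 and 15.7 CPM in naive control to 35.8 and 32 in PU.1 cKO (0.92, SE 0.17, edgeR adjusted p = 0.013) and 38.9 and 31.7 in DKO (0.98, SE 0.17, edgeR adjusted p = 0.00383), with SpiB KO at 22.1 and 24.6. In CD40L + IL-4 it went from 64.7 and 51.5 CPM to 85.9 and 103 in PU.1 cKO (0.70, SE 0.23, edgeR adjusted p = 0.099) and 106 and 103 in DKO (0.84, SE 0.24, edgeR adjusted p = 0.039). These groups did not overlap with control, but the PU.1 cKO call was lost without either control library or replicate 2 of PU.1 cKO (edgeR adjusted p = 0.151, 0.361 and 0.428) and the DKO call without replicate 2 of control (edgeR adjusted p = 0.168). In LPS + IL-4 control stood at 246 and 318 CPM, PU.1 cKO at 269 and 293, SpiB KO at 232 and 243 and DKO at 178 and 189, a fall of 0.62 (SE 0.12, edgeR adjusted p = 0.00337), with the fold under the limit without replicate 1 of DKO (-0.57) or replicate 2 of control (-0.42). Ldhb rose in naive SpiB KO, from 0.91 and 0.498 CPM to 3.39 and 3.34 (2.24, SE 0.43, edgeR adjusted p = 0.0151), and in DKO to 6.76 and 5.64 (3.12, SE 0.42, edgeR adjusted p = 0.000874). The pDC, T cell and macrophage markers were higher in these 4 libraries too, despite the gate against the last 2, and their part in the rise of Ldhb was not tested. Ldha, the main subunit of glycolytic cells, was DE against control in no genotype, at 295 to 394 CPM over the naive libraries.

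At the entry of pyruvate into mitochondria, Pdk2 alone was DE against control. It rose in naive DKO, from 13 and 14 CPM to 21.5 and 23.1 (0.72, SE 0.15, edgeR adjusted p = 0.0101), and in LPS + IL-4 DKO, from 3.67 and 1.76 CPM to 7.14 and 6.08 (1.35, SE 0.30, edgeR adjusted p = 0.00736), without overlap in either stage. In CD40L + IL-4 the values of DKO, 9.49 and 7.34 CPM, lay among those of control, 9.12 and 7.23. Pdk1, Pdk3 and the subunit genes Pdha1 and Pdhb were DE in no genotype at any stage.

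Hif1a rose in 1 comparison only among the 9. With CD40L + IL-4, control held 172 and 142 CPM, SpiB KO 171 and 172, DKO 158 and 123 and PU.1 cKO 480 and 342. It rose in PU.1 cKO (1.39, SE 0.20, edgeR adjusted p = 0.00172) and not in DKO (-0.16, SE 0.20, edgeR adjusted p = 0.642). The difference between the PU.1-deficient genotypes was itself DE (-1.54, SE 0.20, edgeR adjusted p = 0.00258). With LPS + IL-4, control held 140 and 129 CPM, PU.1 cKO 185 and 185 and DKO 175 and 162, changes of 0.45 and 0.32 that passed the adjusted p (0.00542 and 0.0133 by edgeR) but not the fold limit. In naive cells it ranged from 154 to 206 CPM over all libraries.

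DKO was also set against PU.1 cKO, which differs from it in Spib but also in the level of Spi1. Spi1 was higher in DKO than in PU.1 cKO in naive cells (0.92, SE 0.11, edgeR adjusted p = 0.000571) and in LPS + IL-4, there under the fold limit (0.52, SE 0.10, edgeR adjusted p = 0.00944). In CD40L + IL-4 it differed by -0.49 (SE 0.21, edgeR adjusted p = 0.34). In naive cells 4 of the 32 genes were DE and higher (12.9% of all genes were DE): Slc2a6 (2.57, SE 0.18, edgeR adjusted p = 2.46e-05), Ldhb (2.74, SE 0.39, edgeR adjusted p = 0.00157), Pgk1 (1.17, SE 0.26, edgeR adjusted p = 0.018) and Slc16a3 (1.87, SE 0.67, edgeR adjusted p = 0.125). Slc16a3 had 4 to 21 counts in these libraries, and its call was lost on leaving out any of the 4 (edgeR adjusted p 0.183 to 0.421). In CD40L + IL-4 3 were lower (4.06% of all genes): Hif1a, Aldoc (-2.31, SE 0.46, edgeR adjusted p = 0.031) and Slc16a3 (-4.20, SE 1.11, edgeR adjusted p = 0.0962). Without replicate 2 of DKO the adjusted p by edgeR was 0.178 for Aldoc and 0.405 for Slc16a3, and the Slc16a3 call was also lost without replicate 1 of DKO (0.209) or replicate 2 of PU.1 cKO (0.265). In LPS + IL-4 Pdk2 was higher (1.51, SE 0.29, edgeR adjusted p = 0.0088) and Ldha and Slc16a1 lower (12.6% of all genes). Ldha, at 1730 and 2010 CPM in PU.1 cKO and 1050 and 1220 in DKO, differed by -0.72 (SE 0.15, edgeR adjusted p = 0.0125), and control, at 1380 and 1870, overlapped with PU.1 cKO. Slc16a1 differed by -0.61 (SE 0.12, edgeR adjusted p = 0.00844), and its fold was under the limit without replicate 1 of DKO (-0.57) or replicate 2 of PU.1 cKO (-0.54).

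The libraries of SpiB KO in CD40L + IL-4 stood apart from each other in this pathway. Between its replicates, 17 of 32 genes (53.1%) differed by over 1.5-fold, against 18.8% of all genes tested, and the median difference was 0.49 on the log2 scale, replicate 2 minus replicate 1, against -0.01 over all genes. In the other 11 groups 0% to 15.6% of the genes differed that much. Tpi1, the triosephosphate isomerase, stood at 168 and 510 CPM, Ldha at 571 and 1310, Pkm at 681 and 1440 and Aldoa at 595 and 1240, replicate 1 below and replicate 2 above the control libraries (285 to 420, 1010 to 1120, 898 to 1230 and 882 to 974 CPM). Slc16a3 differed most, at 1.87 and 55.9 CPM.

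**Figure D4:**
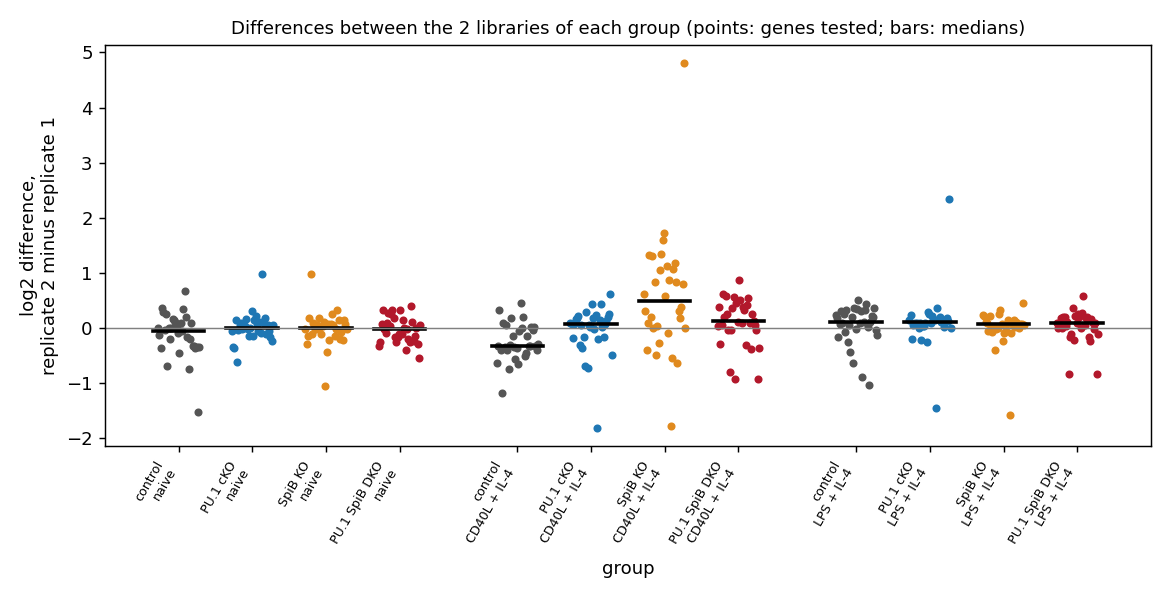
Difference between the 2 libraries of each group on the log2 CPM scale, replicate 2 minus replicate 1, for each gene tested (points) with the median (bar), by stage and genotype. In CD40L + IL-4 SpiB KO the points spread upward, with a median of 0.49 and Slc16a3 at 4.81, while in most other groups they lie close to 0.

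Genes next to the pathway, taken from 3 further lists, moved in part. Of 25 tested genes of glycolysis and pyruvate outside the set, 4 were higher and 1 lower in naive DKO, 2 and 4 in the CD40L + IL-4 culture and 2 and 1 with LPS + IL-4. These are 20%, 24% and 12% of the 25, beside 21.2%, 18.3% and 20.2% of all genes. In naive cells Pgam2, the muscle phosphoglycerate mutase, went from 6.09 and 2.99 CPM to 20.5 and 27.5 (2.40, SE 0.37, edgeR adjusted p = 0.00187) with SpiB KO at 19.9 and 17.3, beside the higher pDC markers, and Emb (1.45), Galm (1.36) and Slc16a7 (-0.93) followed. Emb encodes embigin, a partner that brings monocarboxylate transporters to the membrane. In CD40L + IL-4 Emb went from 5.7 and 4.51 CPM in control to 66 and 50.1 in PU.1 cKO and 29.7 and 33.9 in DKO (2.63, SE 0.22, edgeR adjusted p = 3.75e-05), with SpiB KO at 6.21 and 7.54. Slc16a7, which encodes the transporter MCT2, fell there from 2.46 and 3.98 CPM to 1.29 and 1.05 (-1.45, SE 0.45, edgeR adjusted p = 0.0593), next to Pgm2l1 (-1.01) and Pdp1 (0.85), a pyruvate dehydrogenase phosphatase. In LPS + IL-4 Ldhd (1.93), Slc2a8 (0.69) and Tigar (-0.66), an enzyme that lowers fructose 2,6-bisphosphate, were DE. Of 10 pentose phosphate genes none was DE in naive DKO by edgeR, where 3 had an unadjusted p under 0.05, Prps1 rose in CD40L + IL-4 (0.64, SE 0.25, edgeR adjusted p = 0.125) and H6pd in LPS + IL-4 (0.79, SE 0.11, edgeR adjusted p = 0.000669).

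Of 22 to 24 genes that regulate or respond to hypoxia-inducible factor 1, 3 were higher and 1 lower in naive DKO, 4 higher and 3 lower in CD40L + IL-4, and 7 higher and 1 lower in LPS + IL-4. These are 18.2%, 29.2% and 36.4% of those tested, beside 21.2%, 18.3% and 20.2% of all genes. In LPS + IL-4 Epas1, which encodes a sister alpha subunit, went from 0.346 and 0.414 CPM to 4.08 and 4.71 (3.49, SE 0.30, edgeR adjusted p = 4.47e-05), Ndrg1 from 1.08 and 1.19 to 12.5 and 11.7 (3.40, SE 0.18, edgeR adjusted p = 3.24e-06), Ddit4, an inhibitor of mTORC1, from 30.8 and 28.5 to 118 and 110 (1.95, SE 0.12, edgeR adjusted p = 8.81e-06) and Vegfa from 8.69 and 7.07 to 35.4 and 18.1 (1.78, SE 0.29, edgeR adjusted p = 0.00171). All 4 were DE and higher in PU.1 cKO too, at 2.33 and 2.66 CPM for Epas1, 4.28 and 4.19 for Ndrg1, 70.6 and 90.7 for Ddit4 and 20.2 and 16.8 for Vegfa, the last overlapping with DKO. The plasma cell markers were higher in the same genotypes although the gate excludes CD138+ cells, and their part was not tested. In CD40L + IL-4 the same comparison gave Car9 (-2.61), Ankrd37 (-2.43), Epas1 (1.69) and Ndrg1 (1.31), and in naive cells Egln3 (3.28), Ankrd37 (-1), Ndrg1 (0.88) and Ddit4 (0.64). Car9 had at most 1.05 CPM in that culture, so its fold rests on few reads. Pfkfb4, Slc16a3, Aldoc and Slc2a1, themselves genes that respond to hypoxia in many cells, were lower in CD40L + IL-4 DKO, while Vegfa (1.23) and Ndrg1 were higher. The calls of Slc16a3 and Slc2a1 were lost on leaving out 1 library, as given above.

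The promoters of a phosphofructokinase regulator, a glucose transporter and a lactate transporter described above, chosen after their values were seen, are shown because PU.1 and SpiB act through GGAA-centred sites and hypoxia-inducible factor 1 through ACGTG or the variant GCGTG. RefSeq promoter windows (GRCm38.p6, 250 bases before to 50 after the start) were at hand for 33 of the 34 genes, and not for Slc2a3. The 250 bases before the start are given 5′ to 3′ on the coding strand for Pfkfb4 (chr9:108991652-108991901, plus strand), Slc2a6 (chr2:27027999-27028248, minus strand) and Slc16a3 (chr11:120948817-120949066, plus strand), with ACGTG, the variant GCGTG and their reverse complements in capitals:
Pfkfb4: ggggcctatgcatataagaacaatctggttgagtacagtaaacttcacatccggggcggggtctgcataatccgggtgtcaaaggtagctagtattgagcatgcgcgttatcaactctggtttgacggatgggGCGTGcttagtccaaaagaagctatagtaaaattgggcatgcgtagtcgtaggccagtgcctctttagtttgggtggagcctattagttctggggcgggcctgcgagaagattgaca
Slc2a6: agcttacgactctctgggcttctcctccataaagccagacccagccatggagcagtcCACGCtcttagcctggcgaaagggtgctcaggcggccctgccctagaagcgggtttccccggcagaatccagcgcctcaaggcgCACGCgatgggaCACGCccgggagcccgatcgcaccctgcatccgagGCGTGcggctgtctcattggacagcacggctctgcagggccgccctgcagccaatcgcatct
Slc16a3: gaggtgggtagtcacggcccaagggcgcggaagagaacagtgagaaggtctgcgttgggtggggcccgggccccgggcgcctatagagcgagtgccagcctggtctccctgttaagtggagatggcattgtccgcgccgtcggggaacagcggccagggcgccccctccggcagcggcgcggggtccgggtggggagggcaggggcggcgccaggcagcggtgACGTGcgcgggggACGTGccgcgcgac
Pfkfb4 held 1 GCGTG, Slc2a6 held 4 on either strand and Slc16a3 held 2 ACGTG close to the start. GGAAGT, the longer core searched for PU.1 and SpiB, was in none of them. The shorter GGAA was not searched or marked, and it or its reverse complement does occur in the printed bases of Slc2a6 and Slc16a3.

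Over the 33 genes, 20 (60.6%) had ACGTG on either strand in at least 1 window, against 21.8% of all 27025 genes with a window. GCGTG was in 21 (63.6%, against 35.2%) and CACGTG, which contains ACGTG and is also the E-box of MYC, in 7 (21.2%, against 8.09%). GGAAGT was in 5 (15.2%, against 26.5%): Hk1, Hk3, Gpi1, Pfkm and Pgk1. A gene with more windows has more room for a match. By window, ACGTG was in 49% of the 49 windows of these genes against 19.6% of all 32851. GCGTG was in 55.1% against 32.4%, CACGTG in 14.3% against 7.15% and GGAAGT in 10.2% against 23.8%. The background is every gene with a window, expressed here or not, and it was not matched for base composition. These are matches of letters in a short window and not sites of binding.

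The DKO effect differed between stages for some genes. Deletion of Spi1 was partial in naive DKO, as given above. Naive and CD40L + IL-4 DKO cells thus differed in PU.1 deletion as well as in stage, and the part of each was not tested. The difference of the log2 fold changes of DKO against control was DE for 5 of 33 genes between CD40L + IL-4 and naive cells (14.4% of all genes) and for 7 between LPS + IL-4 and CD40L + IL-4 (22.5%). Slc2a6 and Aldoc were higher than control in naive cells and lower in CD40L + IL-4, by differences of -2.99 (SE 0.24, edgeR adjusted p = 2.09e-07) and -3.11 (SE 0.51, edgeR adjusted p = 0.000372), and Slc2a3 went the other way (1.47, SE 0.24, edgeR adjusted p = 0.000413). Slc16a1 was higher in CD40L + IL-4 and lower in LPS + IL-4 (-1.54, SE 0.28, edgeR adjusted p = 0.00203). The comparisons share the CD40L + IL-4 libraries.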

How the data were processed

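The authors aligned reads to the mouse genome (GRCm38/mm10) with Subread, kept uniquely mapped reads and deposited raw counts per gene, summed by featureCounts over RefSeq exons. They also deposited log2 RPKM values, quantile-normalized with limma voom separately for the LPS + IL-4 libraries; these were used only for levels between genes. Read length and tool versions are not given in the sources used here. All 24 count columns were used. For each stage, genes with at least 0.5 CPM in 2 libraries were kept, scaled by TMM and tested over its 8 libraries with edgeR (4.0.16, R 4.3.3) by the quasi-likelihood test. Control stages and differences of the DKO effect were tested in 1 fit of all 24 libraries. Genes with a Benjamini-Hochberg adjusted p under 0.15 and a fold over 1.5 were called DE, p-values being adjusted over all genes tested. SE is an approximate standard error, the absolute log2 fold change divided by the square root of the test's F statistic. The procedure was tested on simulated counts.

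The members and lists were chosen with earlier results of these data known. Members DE in a genotype against control were given with both libraries of that genotype and of control. Values of the other genotypes were given for some of them only, and a genotype left out was not thereby unchanged. In control stages members among the 3 largest rises or falls were given, and of other pathway lists up to 4 DE genes per stage with the largest change in DKO. Other genes named, such as Vegfa in CD40L + IL-4, were chosen after their values were seen.

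Replicates are biological per the study's methods, and with 2 per group an exact permutation test of a single gene cannot go below p = 0.333, so p-values come from edgeR's fit across genes. Deviations of same-numbered libraries from their group means correlated at 0.386 to 0.514 in all 6 pairs of LPS + IL-4 groups, at 0.0918 to 0.25 in naive cells (5 of 6 over 0.1) and at -0.0702 to 0.266 in CD40L + IL-4 (4 of 6), so the numbers pair the libraries in LPS + IL-4 by this check, not by a stated source. Alternatives were DESeq2 (1.42.0), limma voom (3.58.1), other scaling, filters and thresholds, the replicate block, other sets of libraries in the fit and leaving out each library.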

Additional observations from a re-analysis of the deposited data

Results flagged for a closer look

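In each case below the DKO effect, the log2 fold change against control of the same stage, differed between stages by a test of the difference itself (edgeR, adjusted p under 0.15). Deletion of Spi1 was partial in naive DKO, so the differences from naive cells also hold a difference in PU.1 deletion. About naive and CD40L + IL-4 cells, the effect in CD40L + IL-4 minus that in naive cells was 1.47 for Slc2a3 (edgeR adjusted p = 0.000413), -2.99 for Slc2a6 (2.09e-07), -0.84 for Pfkm (0.0828), -3.11 for Aldoc (0.000372) and -4.33 for Slc16a3 (0.12). Those of Slc2a3, Slc2a6 and Aldoc were kept on leaving out each of the 8 libraries, that of Pfkm in 4 of 8 and that of Slc16a3 in 1 of 8.

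The effect in LPS + IL-4 minus that in CD40L + IL-4 was -0.64 for Slc2a3 (edgeR adjusted p = 0.0804), 0.74 for Pfkfb4 (0.106), 2.40 for Aldoc (0.00463), -0.83 for Ldha (0.144), 1.23 for Pdk2 (0.0309), -1.54 for Slc16a1 (0.00203) and 4.22 for Slc16a3 (0.0585). Those of Aldoc and Slc16a1 were kept on leaving out each of the 8 libraries, that of Pdk2 in 7 (not without replicate 2 of the LPS + IL-4 control, at 0.76), that of Slc16a3 in 5, those of Slc2a3 and Pfkfb4 in 4 and that of Ldha in 2.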

How the results depend on the processing

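No call changed direction under any alternative run. Counts of DE genes moved by over 1.5 times as follows. Without a fold limit they were 7 in place of 4 in naive PU.1 cKO, 20 in place of 10 in naive DKO, 8 in place of 4 in naive DKO against PU.1 cKO, 7 in place of 2 in LPS + IL-4 PU.1 cKO, 16 in place of 4 in LPS + IL-4 DKO and 15 in place of 3 against PU.1 cKO there. The shares of all genes under the changed settings are not given here, so the counts of this section show only how calls depend on the settings. At an adjusted p under 0.05 they were 2 in CD40L + IL-4 PU.1 cKO (4 before), 1 in LPS + IL-4 PU.1 cKO, 0 in LPS + IL-4 SpiB KO (1 before, 0 with only the groups compared), and 3 for the effect differences of both stage pairs (5 and 7 before). Without a filter on low counts, CD40L + IL-4 gave 9 in PU.1 cKO and 7 in DKO against PU.1 cKO (3 before), LPS + IL-4 SpiB KO gave 2, and the effect differences 9 and 12. With all 24 libraries in 1 fit, CD40L + IL-4 gave 8 and 8, and with only the groups compared, an alternative chosen after seeing the data, 7 and 7. LPS + IL-4 PU.1 cKO gave 1 with a mean log2 RPKM above 0, voom, 24 libraries or only the groups compared. LPS + IL-4 SpiB KO gave 2 by DESeq2 and voom, and the effect difference of CD40L + IL-4 against naive gave 3 by voom. The causes were not tested, other than the settings' own construction.

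With the replicate number as a block, LPS + IL-4 SpiB KO gave 2 and the effect difference between the cultures 11. The block left PU.1 cKO and DKO in LPS + IL-4 at 2 and 4. In naive and CD40L + IL-4 cells the libraries share only a number, and the block gave 5 in PU.1 cKO of either stage.

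Leaving out each library in turn, the counts ranged from 3 to 6 in naive PU.1 cKO, 2 to 5 in SpiB KO, 9 to 12 in DKO and 3 to 5 in DKO against PU.1 cKO. In CD40L + IL-4 they were 1 to 5, 0 to 1, 5 to 8 and 1 to 4, and in LPS + IL-4 1 to 3, 0 to 2, 2 to 7 and 2 to 7. In control they were 19 to 24, 22 to 25 and 11 to 15, and for the effect differences 3 to 5 and 2 to 12. Of the values for single genes, 429 stayed DE and 91 did not over these, and by voom 101 and 17. Depth limits Ldhb, Eno2, Slc16a3 and Hk3, with under 30 counts in several libraries. It also limits Gapdh and Pfkm in naive cells, with 14 and 13 counts and 45 and 27 counts in the control libraries.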
